A study of Mus musculus with 10 samples.

Results

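The genes described here encode the glycoproteins and proteoglycans of the extracellular matrix of mouse bone marrow mesenchymal stromal cells. The list named 42 genes by symbol. Of these, 40 had a probe set whose only gene symbol was that gene, out of 19938 genes named in this way, and each had exactly 1 such probe set. Efemp2 and Fbn1 carried no symbol in the platform annotation, so they are not analysed here. The cells came from the marrow of female C57BL/6J mice aged 6 to 8 weeks, were grown in a MesenCult medium for mouse cells with antibiotics, and were studied at passage 16 to 17. The labels name 5 independent preparations, MSC I to MSC V, each with 2 arrays. All shared the strain, sex, age range and medium, no treatment was named and none was named as a control. Which preparation was at which passage, and whether a preparation pooled several mice, is not stated in the labels.

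Matrix glycoproteins and proteoglycans are secreted by stromal cells and assemble outside them around collagen. Laminins, nidogens and perlecan build the basement membrane, a thin sheet on which cells rest. Fibrillins, fibulins and microfibril-associated proteins build the microfibrils that carry elastin. Fibronectin, tenascins, thrombospondins, periostin and other matricellular glycoproteins tie cells to the matrix and alter adhesion. Proteoglycans such as versican and the small leucine-rich family carry sugar chains that hold water. Members of this class bind collagen fibrils and store growth factors. In the marrow this matrix forms part of the surroundings of blood stem cells.

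The deposited values were log2 expression levels of 35399 probe sets on 10 arrays, with array medians of 6.45 to 6.63. Arrays of 1 preparation correlated at r = 0.971 to 0.982 across the tested genes, and arrays of different preparations at r = 0.760 to 0.955. The stromal markers Prrx1 (11.95 to 12.63), Pdgfrb (10.83 to 12.33) and Vim (13.36 to 13.75) were well above the table median of 6.55 on every array. Other markers of marrow stroma were not shared: Thy1 lay between 5.45 and 7.69 and Lepr between 5.44 and 8.35. Eng averaged 9.60 in MSC IV and 5.58 to 5.79 in the other preparations. All 10 endothelial markers and 9 of 11 blood cell markers failed the low-value filter described next, with the leukocyte marker Ptprc at 5.11 to 5.25. Of the blood cell markers, Cd68 (up to 8.54) and Cd14 (up to 7.20) passed it. Of 10 chondrocyte markers 8 failed it, as did 7 of 8 epithelial markers. Krt19, the 1 epithelial marker tested, averaged 9.84 in MSC I and 5.59 in MSC IV. Its difference from the mean of the other preparations was 2.61 log2 in MSC I and 1.87 log2 in MSC V. That difference was 0.08 log2 in MSC III, -1.865 log2 in MSC II and -2.70 log2 in MSC IV. The part of Krt19 in the results was not tested. Nothing in the labels says that both arrays of a preparation came from separate cultures. The p-values therefore measure only the spread of these arrays, possibly a technical one, and precision is limited by their number. In whole-culture RNA, fewer cells that make a transcript and less of it per cell cannot be told apart.

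Most of the measured matrix genes differed among the preparations, and the differences were wider than for a typical gene. Testing required 2 or more arrays above the table median, a condition that 36 of the 40 genes and 10971 genes in all met. Of the 36, 0 met it through the arrays of 1 preparation alone. A gene was called if limma gave an adjusted p under 0.05 and the means were 1 log2 or more apart, a fold of 2. Among the 36, 23 (63.9%) differed in limma's moderated F test over the 5 preparation means, against 29.1% of all tested genes. The median range of the preparation means was 2.82 log2 for these 36 genes and 0.75 log2 for all tested genes. Of the 23 genes, 14 had their lowest mean in MSC IV (60.9%, against 36.6% of all genes called). MSC I had the highest mean of 9 (39.1%) and the lowest mean of 8 (34.8%, against 32.4% of all genes called). Both shares lay near those of all genes called, of which 1212 of 3192 had their highest mean in MSC I.

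Each preparation was then compared with the plain average of the means of the other four. In MSC I 10 of the 36 genes were higher (27.8%, against 7.73% of all tested genes) and 10 were lower (27.8%, against 5.22%). In MSC II 8 were higher (22.2%, against 2.45%), while the 1 lower gene (2.78%) was close to the 2.69% of all genes. MSC III had 8 higher genes (22.2%, against 1.31%) and 1 lower gene (2.78%, against 0.957%). MSC IV had 14 lower genes (38.9%, against 7.70%), while its 1 higher gene (2.78%) lay under the 3.29% of all genes. MSC V had 6 higher genes (16.7%, against 2.11%) and 1 lower gene (2.78%, against 1.44%). In the direct comparison of MSC I with MSC IV, 13 genes were higher in MSC I (36.1%, against 12.3%) and 6 were lower in MSC I (16.7%, against 8.04%). MSC III and MSC V differed in 2 genes (5.56%, against 2.07%). These comparisons share arrays, so a high value in 1 preparation also lowers the differences of the others.

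**Figure D1:**
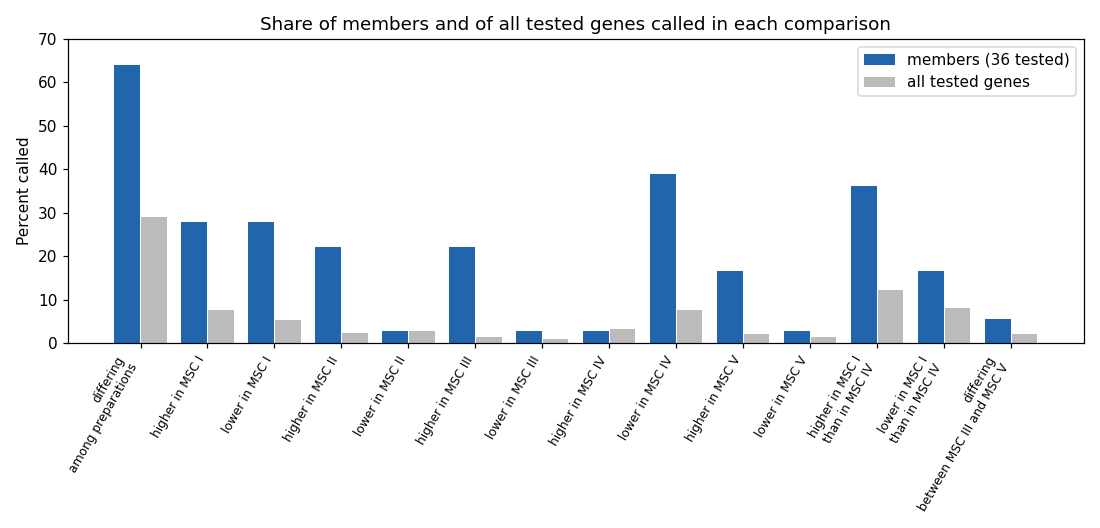
The vertical axis gives the percent of genes called in each comparison on the horizontal axis, in blue for the 36 tested matrix genes and in grey for all tested genes. The blue bars reach 63.9% for differences among all preparations and 38.9% for genes lower in MSC IV, against 29.1% and 7.70% in grey.

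**Figure D2:**
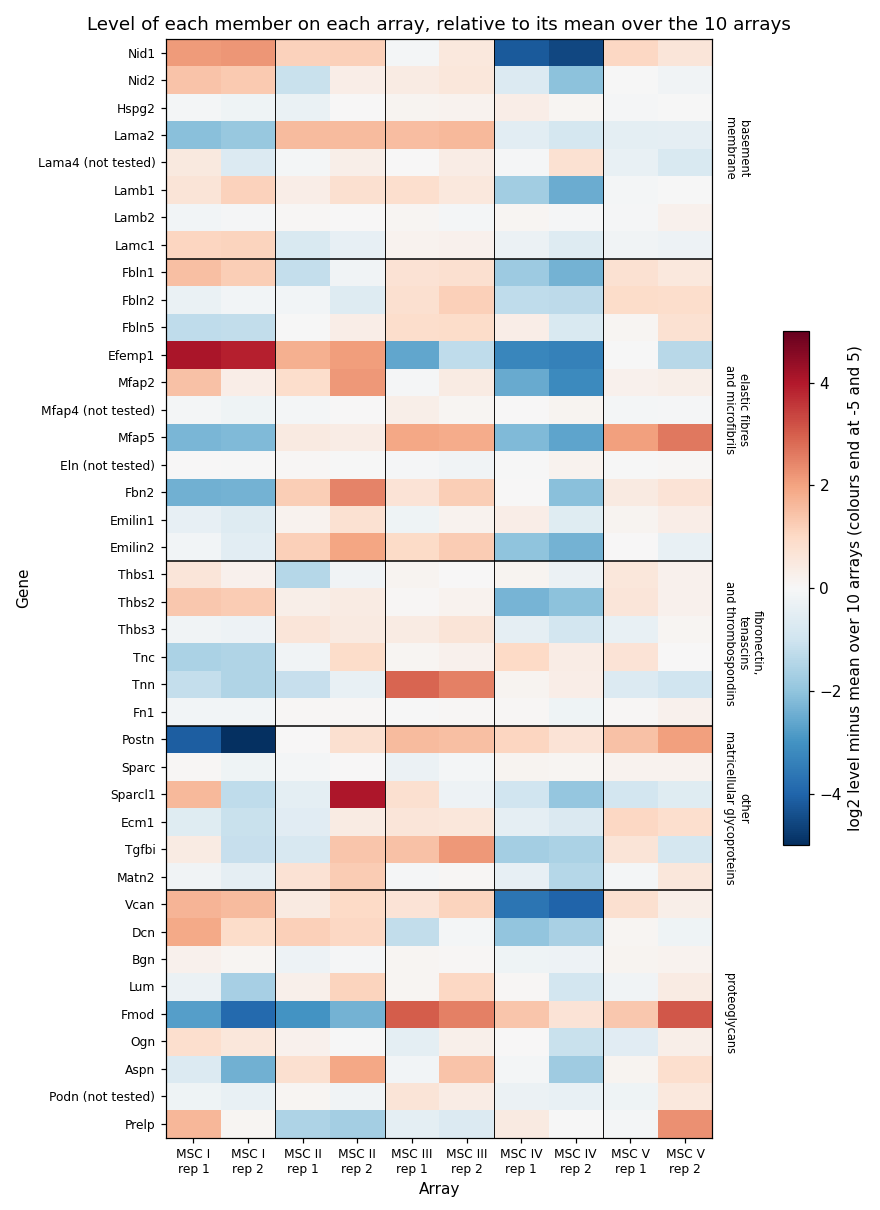
Each row is 1 of the 40 measured genes, grouped by role, and each column 1 array, with both arrays of a preparation side by side. The colour is the log2 level minus the gene's mean over the 10 arrays, red above and blue below, and the deepest blue of MSC IV is that of Nid1 and Vcan and the deepest blue of MSC I that of Postn.

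Among the basement membrane genes, 5 of 7 tested differed (71.4%, against 29.1% of all tested genes), and the nidogen Nid1 had the widest range. Nid1, which bridges the laminin and collagen IV networks (probe set 10403584, chromosome 13), had 6.32 and 5.96 log2 in MSC IV, against 12.65 and 12.73 in MSC I, 11.68 and 11.72 in MSC II, 10.41 and 11.07 in MSC III and 11.54 and 11.12 in MSC V. Both MSC IV arrays lay under the table median and 4.09 log2 below the nearest other array. The difference of MSC IV from the other preparations was -5.48 ± 0.191 log2, adjusted p = 9.86e-06, and the MSC IV level was not shown to be above background. The error of this and every other difference is the standard error of the fit. Its relative Nid2 was at 11.23 and 11.10 log2 in MSC I, against 8.66 and 10.13 in MSC II, 10.18 and 10.36 in MSC III, 9.11 and 7.73 in MSC IV and 9.76 and 9.62 in MSC V. Both arrays of MSC I lay above all others, and replicates of MSC II and MSC IV lay more than 1 log2 apart. The range of Nid2 was 2.74 log2 (adjusted p = 0.0245), and it lost its call without MSC I rep 1, MSC I rep 2 or MSC IV rep 2 (adjusted p = 0.0509 to 0.0800), or when low-value genes were kept in (adjusted p = 0.0513).

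The laminin chains went different ways. Lama2, the alpha chain of the laminin of muscle basement membranes (probe set 10368409, chromosome 10), had 5.48 and 5.69 log2 in MSC I, against 9.14 and 9.15 in MSC II, 9.12 and 9.21 in MSC III, 7.03 and 6.70 in MSC IV and 7.10 and 7.12 in MSC V. The arrays fell into separate levels, with MSC II and MSC III high, MSC IV and MSC V between, and MSC I low, and its replicates lay within 0.33 log2 of each other (range 3.58 log2, adjusted p = 1.02e-05). Lamb1, a beta chain, had 8.11 and 7.37 log2 in MSC IV, against 10.52 and 11.03 in MSC I, 10.19 and 10.66 in MSC II, 10.70 and 10.39 in MSC III and 9.78 and 9.84 in MSC V. Both MSC IV arrays were below all others, with a difference of -2.65 ± 0.23 log2, adjusted p = 0.000263. Lamc1, the gamma chain that pairs with it in many laminins, had 10.93 and 10.96 log2 in MSC I, against 9.10 and 9.44 in MSC II, 10.03 and 10.08 in MSC III, 9.55 and 9.21 in MSC IV and 9.68 and 9.60 in MSC V. Both MSC I arrays lay above all others, and the difference was 1.36 ± 0.126 log2, adjusted p = 0.000193. Lamb2, a second beta chain, lay at 9.47 to 9.81 over the 10 arrays and the proteoglycan perlecan, Hspg2, at 10.70 to 11.38. Neither was called (adjusted p = 0.776 for Lamb2 and 0.131 for Hspg2). Lama4, an alpha chain of vessel basement membranes, failed the filter at 5.15 to 6.67.

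The sequences before the transcription start are shown for 4 genes with wide differences, Nid1 and Vcan, which were low in MSC IV, and Postn and Fmod, which were low in MSC I. They are the 250 bases before the start in RefSeq on GRCm38.p6, 5′ to 3′ on the gene's strand, at chr13:13437352-13437601 (plus strand) for Nid1, chr13:89742513-89742762 (minus strand) for Vcan, chr3:54359017-54359266 (plus strand) for Postn and chr1:134037004-134037253 (plus strand) for Fmod. Capitals mark matches, on either strand, to 4 motifs: the TATA box TATAAA, the GC box GGGCGG, the AP-1 site TGANTCA and the TEAD site GGAATG.
Nid1: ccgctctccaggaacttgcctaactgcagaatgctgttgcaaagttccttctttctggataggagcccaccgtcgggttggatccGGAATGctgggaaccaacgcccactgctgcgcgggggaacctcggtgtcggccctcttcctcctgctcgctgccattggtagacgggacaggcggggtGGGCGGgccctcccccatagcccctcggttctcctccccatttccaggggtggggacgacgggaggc
Vcan: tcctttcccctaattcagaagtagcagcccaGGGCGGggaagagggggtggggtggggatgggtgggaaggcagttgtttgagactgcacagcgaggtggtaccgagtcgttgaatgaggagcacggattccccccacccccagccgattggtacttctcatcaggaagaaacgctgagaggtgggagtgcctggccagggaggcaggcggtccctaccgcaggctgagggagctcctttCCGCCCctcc
Postn: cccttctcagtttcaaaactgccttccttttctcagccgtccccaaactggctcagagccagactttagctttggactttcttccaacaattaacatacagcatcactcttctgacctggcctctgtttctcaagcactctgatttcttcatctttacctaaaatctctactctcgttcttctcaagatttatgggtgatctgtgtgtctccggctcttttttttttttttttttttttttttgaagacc
Fmod: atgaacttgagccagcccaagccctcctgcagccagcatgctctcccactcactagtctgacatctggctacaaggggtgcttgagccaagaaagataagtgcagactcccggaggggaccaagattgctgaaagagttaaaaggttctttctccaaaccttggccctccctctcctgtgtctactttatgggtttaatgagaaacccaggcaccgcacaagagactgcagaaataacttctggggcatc
The Nid1 window held 1 TEAD match, 165 bases before the start, and 1 GC box, 67 bases before it. The Vcan window held GC boxes 219 bases before the start and, on the other strand, 10 bases before it. No match to the 4 motifs was in the Postn and Fmod windows. Among the 27 measured genes with a window, 13 held a GC box (48.1%, against 33.0% of the windows of 27025 genes). The TATA box was in 5 (18.5%, against 13.0%), the TEAD site in 4 (14.8%, against 12.6%) and the AP-1 site in 2 (7.41%, against 6.85%). No matches of different motifs overlapped in these 27 windows. A match is a description of the letters and was not tested for use.

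Of the 9 tested genes of elastic fibres and microfibrils, 8 differed (88.9%, against 29.1% of all tested genes), and 6 of the 9 were lower in MSC IV (66.7%, against 7.70%). Efemp1, a fibulin (probe set 10374777, chromosome 11), had the widest range of the 40 genes, with 13.08 and 12.90 log2 in MSC I, against 10.80 and 11.12 in MSC II, 6.41 and 7.74 in MSC III, 5.76 and 5.65 in MSC IV and 9.01 and 7.64 in MSC V. Both MSC I arrays lay above all others, MSC II came next, and MSC III and MSC V overlapped each other. MSC I exceeded the mean of the others by 4.97 ± 0.401 log2, adjusted p = 9.18e-05. Mfap5, a microfibril-associated glycoprotein (probe set 10541496, chromosome 6), had 5.93 and 5.48 log2 in MSC IV, against 5.84 and 5.91 in MSC I, 8.59 and 8.49 in MSC II, 10.07 and 9.96 in MSC III and 10.19 and 10.77 in MSC V. It was under the table median on all 4 arrays of MSC IV and MSC I, at a middle level in MSC II, and high in MSC III and MSC V. The differences were -3.03 ± 0.171 log2, adjusted p = 4.48e-05 for MSC IV and -2.81 ± 0.171 log2, adjusted p = 2.02e-05 for MSC I. The related Mfap2 had 7.33 and 6.66 log2 in MSC IV, against 11.32 and 10.18 in MSC I, 10.75 and 12.001 in MSC II, 9.79 and 10.25 in MSC III and 10.07 and 10.16 in MSC V. The MSC IV arrays were again the lowest 2, with a difference of -3.57 ± 0.389 log2, adjusted p = 0.000706, while replicates of MSC I and MSC II lay more than 1 log2 apart.

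Fbn2, a fibrillin that forms the core of microfibrils, had 6.95 and 6.99 log2 in MSC I, against 10.58 and 11.83 in MSC II, 10.03 and 10.59 in MSC III, 9.36 and 7.26 in MSC IV and 9.77 and 10.04 in MSC V. MSC I was lowest on both arrays, with a difference of -2.96 ± 0.515 log2, adjusted p = 0.00347, and the MSC IV arrays were 2.10 log2 apart. Emilin2, a glycoprotein at the interface of elastin and microfibrils, had 6.21 and 5.85 log2 in MSC IV, against 8.05 and 7.68 in MSC I, 9.40 and 10.17 in MSC II, 9.14 and 9.49 in MSC III and 8.21 and 7.83 in MSC V. Both MSC IV arrays were under the table median and below all others, with a difference of -2.72 ± 0.228 log2, adjusted p = 0.000236. Its relative Emilin1 was not called at 8.48 to 9.90 (range 1.01 log2, adjusted p = 0.14), but was called without MSC IV rep 1 (adjusted p = 0.0419). The fibulin Fbln1 had 8.37 and 7.82 log2 in MSC IV, against 11.72 and 11.43 in MSC I, 9.02 and 10.004 in MSC II, 10.92 and 10.996 in MSC III and 10.94 and 10.71 in MSC V, with both MSC IV arrays the lowest. The MSC IV difference was -2.62 ± 0.253 log2, adjusted p = 0.000443. Fbln2 averaged 9.67 in MSC IV, against 10.73 in MSC I, 10.57 in MSC II, 11.96 in MSC III and 11.88 in MSC V (range 2.29 log2, adjusted p = 0.000499). Fbln5, which is needed to assemble elastic fibres, was lowest in MSC I at 8.86 and 8.87, against 9.37 to 11.02 in the others (range 2.13 log2, adjusted p = 0.0116), and lost this call without MSC I rep 1 (adjusted p = 0.0524). Elastin itself, Eln, failed the filter at 5.36 to 5.72, as did Mfap4 at 5.02 to 5.53.

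**Figure D3:**
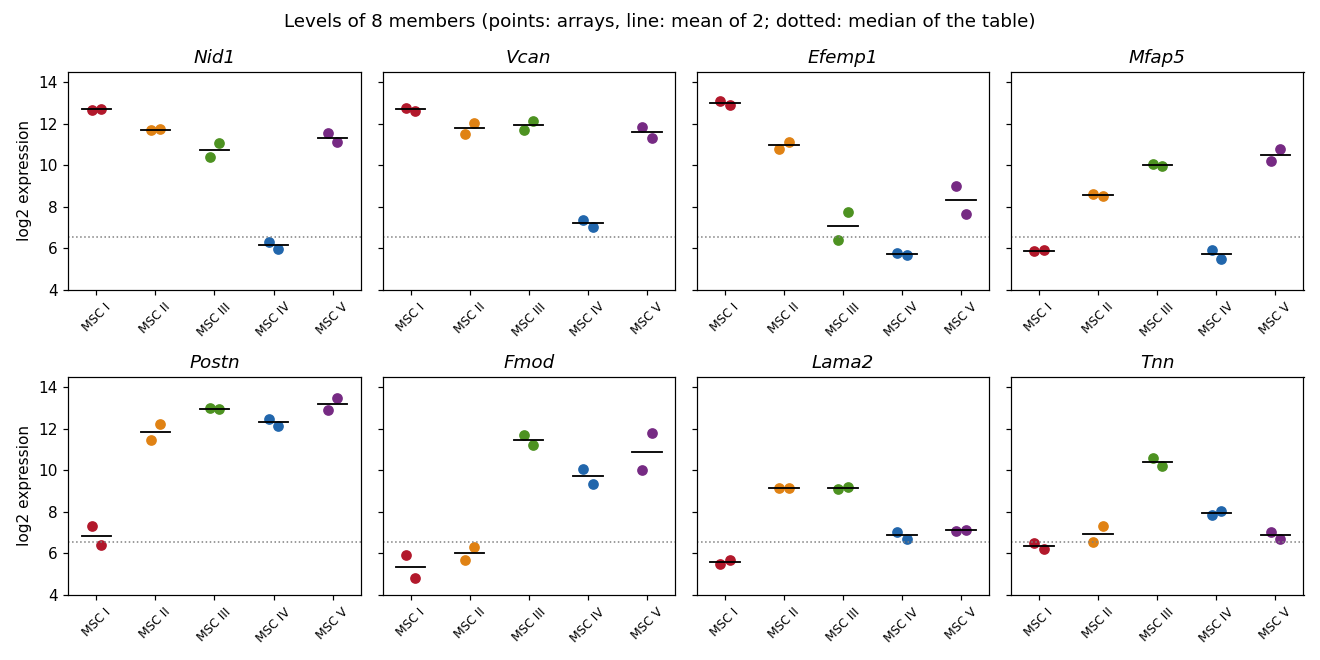
Each panel shows the log2 level of 1 gene on the 2 arrays of each preparation (points) with their mean (line), and the dotted line is the table median of 6.55. Nid1 and Vcan are low in MSC IV alone, Postn in MSC I alone, Mfap5 in both, Fmod in MSC I and MSC II, and Tnn is high in MSC III.

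Of the 6 genes of fibronectin, tenascins and thrombospondins, 4 differed (66.7%, against 29.1% of all tested genes). Thbs2, a thrombospondin that inhibits vessel growth, had 9.89 and 10.16 log2 in MSC IV, against 13.54 and 13.48 in MSC I, 12.51 and 12.61 in MSC II, 12.28 and 12.37 in MSC III and 12.81 and 12.40 in MSC V. MSC IV was lowest and MSC I highest on both arrays, with no overlap with the rest, and the MSC IV difference was -2.72 ± 0.129 log2, adjusted p = 3.05e-05. Thbs1 was high everywhere at 12.002 to 14.03 and was not called (range 1.21 log2, adjusted p = 0.103), except without MSC II rep 2 (adjusted p = 0.0105). Thbs3 lay at 6.44 to 8.04 (range 1.23 log2, adjusted p = 0.00895) and fell short of 1 log2 without MSC IV rep 2 (0.99 log2). Tnn, tenascin W, which is found in developing bone (probe set 10359307, chromosome 1), had 10.59 and 10.20 log2 in MSC III, against 6.50 and 6.19 in MSC I, 6.53 and 7.33 in MSC II, 7.83 and 8.05 in MSC IV and 7.03 and 6.70 in MSC V. Both MSC III arrays stood 2.16 log2 above the nearest other array, and the difference was 3.38 ± 0.219 log2, adjusted p = 0.000419. Tnc, the widely expressed tenascin C, had 10.38 and 10.49 log2 in MSC I, against 11.80 and 12.88 in MSC II, 12.09 and 12.18 in MSC III, 12.98 and 12.34 in MSC IV and 12.65 and 12.003 in MSC V. MSC I was lowest on both arrays, with a difference of -1.93 ± 0.297 log2, adjusted p = 0.00207. Its range over the preparations (2.22 log2, adjusted p = 0.0111) lost its call without MSC I rep 1 (adjusted p = 0.0671) or rep 2 (adjusted p = 0.0533). Fn1, fibronectin, lay at 13.34 to 13.78 on all arrays and was not called (range 0.28 log2, adjusted p = 0.298).

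Of the 6 other matricellular glycoproteins, 3 differed (50.0%, against 29.1% of all tested genes). Postn, periostin, which is typical of periosteum and other collagen-rich tissue (probe set 10492021, chromosome 3), had 7.30 and 6.40 log2 in MSC I, against 11.44 and 12.24 in MSC II, 13.03 and 12.94 in MSC III, 12.50 and 12.13 in MSC IV and 12.92 and 13.48 in MSC V. Both MSC I arrays lay 4.14 log2 below the nearest other array, and the difference was -5.74 ± 0.29 log2, adjusted p = 7.11e-06, with 1 MSC I array under the table median. Ecm1 had 12.33 and 12.13 log2 in MSC V, against 10.67 and 10.17 in MSC I, 10.71 and 11.70 in MSC II, 11.90 and 11.86 in MSC III and 10.85 and 10.59 in MSC IV, with MSC V highest on both arrays (range 1.81 log2, adjusted p = 0.00958). Matn2, a matrilin that bridges matrix filaments, lay at 7.90 to 10.57 (range 1.91 log2, adjusted p = 0.0234) and lost its call without MSC II rep 2 (adjusted p = 0.0762).

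Sparc, or osteonectin, a collagen-binding glycoprotein abundant in bone, lay at 13.16 to 13.62 and was not called (range 0.37 log2, adjusted p = 0.189). Its relative Sparcl1 had 6.99 and 11.53 log2 in MSC II, against 9.09 and 6.22 in MSC I, 8.28 and 7.22 in MSC III, 6.46 and 5.53 in MSC IV and 6.55 and 6.86 in MSC V. The MSC II arrays were 4.54 log2 apart, the widest replicate gap of the 40 genes, and the gene was not called (range 3.26 log2, adjusted p = 0.332), though it was without MSC II rep 1 (adjusted p = 0.0359). Tgfbi, a TGF-beta-induced adhesion protein, had 5.87 and 6.01 log2 in MSC IV, against 7.99 and 6.43 in MSC I, 6.78 and 8.97 in MSC II, 9.05 and 9.77 in MSC III and 8.20 and 6.71 in MSC V. MSC IV was lowest on both arrays. The range was not called (range 3.46 log2, adjusted p = 0.0574), but was without MSC II rep 1 (adjusted p = 0.0243) or rep 2 (adjusted p = 0.0300). In all, 17 of the 40 genes had a replicate gap over 1 log2 in at least 1 preparation.

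Of the 8 tested proteoglycans, 3 differed, a share of 37.5% that lies near the 29.1% of all tested genes. Vcan, versican, a large chondroitin sulfate proteoglycan that binds hyaluronan (probe set 10410931, chromosome 13), had 7.37 and 7.03 log2 in MSC IV, against 12.75 and 12.63 in MSC I, 11.50 and 12.04 in MSC II, 11.71 and 12.15 in MSC III and 11.84 and 11.33 in MSC V. The MSC IV arrays lay 3.95 log2 below the nearest other array, and the difference was -4.79 ± 0.204 log2, adjusted p = 1.93e-05, a 27.6-fold lower level. Dcn, decorin, which binds collagen fibrils, had 6.86 and 7.21 log2 in MSC IV, against 10.71 and 9.76 in MSC I, 10.04 and 9.85 in MSC II, 7.60 and 8.71 in MSC III and 8.94 and 8.63 in MSC V. MSC I and MSC II were high, MSC IV low on both arrays, and the MSC IV difference was -2.24 ± 0.323 log2, adjusted p = 0.00229. Fmod, fibromodulin, which regulates collagen fibrils in tendon (probe set 10349947, chromosome 1), had 5.93 and 4.79 log2 in MSC I, against 5.70 and 6.31 in MSC II, 11.72 and 11.21 in MSC III, 10.08 and 9.36 in MSC IV and 10.03 and 11.79 in MSC V. All 4 arrays of MSC I and MSC II were under the table median, and all 6 of the others were above 9. The difference was -4.16 ± 0.482 log2, adjusted p = 0.000572 for MSC I and -3.36 ± 0.482 log2, adjusted p = 0.0045 for MSC II.

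Biglycan, Bgn, the closest relative of decorin, was high on all arrays at 13.14 to 13.62. Its adjusted p was 0.0466, but its range of 0.40 log2 was under the 1 log2 needed. Ogn, osteoglycin, was likewise high at 11.40 to 13.34 and was not called (range 1.25 log2, adjusted p = 0.194). Asporin, Aspn, had 7.18 and 5.46 log2 in MSC I, against 8.65 and 9.79 in MSC II, 7.70 and 9.29 in MSC III, 7.75 and 6.06 in MSC IV and 7.99 and 8.68 in MSC V. Replicates were up to 1.72 log2 apart, and its range was not called (range 2.90 log2, adjusted p = 0.0684). Prelp, which anchors basement membranes to collagen, had 6.28 and 6.14 log2 in MSC II, against 9.48 and 7.90 in MSC I, 7.33 and 7.15 in MSC III, 8.29 and 7.80 in MSC IV and 7.72 and 10.11 in MSC V. MSC II was lowest on both arrays. The range of Prelp was not called (range 2.70 log2, adjusted p = 0.0659), but was without MSC V rep 1 (adjusted p = 0.0103) or rep 2 (adjusted p = 0.0284). Lum, lumican, lay at 4.29 to 7.08 (range 1.67 log2, adjusted p = 0.129), with 2 arrays above the table median, and Podn failed the filter at 5.33 to 6.36. Fn1, Sparc, Thbs1 and Bgn were among the top 2% of probe sets by mean level, where the table ends at 14.59, and whether the scale hides differences there was not tested.

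MSC I combined high nidogen, laminin beta and gamma and some fibulin genes with low periostin and fibromodulin and the low microfibril genes Fbn2 and Mfap5. Not all of these were particular to MSC I. Fmod averaged 5.365 in MSC I and 6.007 in MSC II, and Mfap5 5.88 in MSC I and 5.70 in MSC IV. Lamb1 in MSC I was not called against MSC II (adjusted p = 0.376) or MSC III (adjusted p = 0.59). Fbln1 was not called against MSC III (adjusted p = 0.192) or MSC V (0.128), nor Nid2 against MSC III (0.244) or MSC V (0.0826). Fbn2 in MSC I was not called against MSC IV (adjusted p = 0.129), nor Dcn against MSC II (0.605). Tnn in MSC I was not called against MSC II (adjusted p = 0.134) or MSC V (0.214). The 10 higher genes were Efemp1 (4.97 ± 0.401 log2), Nid1 (2.71 ± 0.191), Vcan (2.07 ± 0.204), Dcn (1.75 ± 0.323), Fbln1 (1.73 ± 0.253), Nid2 (1.72 ± 0.419), Thbs2 (1.63 ± 0.129), Lamc1 (1.36 ± 0.126), Lamb1 (1.14 ± 0.23) and Mfap2 (1.12 ± 0.389). The 10 lower genes were Postn (-5.74 ± 0.29), Fmod (-4.16 ± 0.482), Fbn2 (-2.96 ± 0.515), Mfap5 (-2.81 ± 0.171), Lama2 (-2.49 ± 0.113), Tnc (-1.93 ± 0.297), Aspn (-1.92 ± 0.648), Tnn (-1.69 ± 0.219), Fbln5 (-1.56 ± 0.273) and Ecm1 (-1.09 ± 0.247). The call of Vcan ended with MSC IV omitted from the reference (0.93 log2), and so did those of Lamb1 (0.51 log2) and Mfap2 (0.24 log2). Mfap2 was also not called without any 1 array other than MSC I rep 2 and MSC II rep 2 (adjusted p = 0.0504 to 0.404). Dcn was not called without MSC I rep 1 (adjusted p = 0.0548), Nid2 without MSC I rep 1 (adjusted p = 0.0954) or rep 2 (adjusted p = 0.0681), and Lamb1 without MSC I rep 2 (adjusted p = 0.0659). Ecm1 was not called without MSC I rep 2 (adjusted p = 0.0984) or MSC II rep 2 (-0.96 log2). Aspn was not called without the second array of MSC I, of MSC II or of MSC III, the first of MSC IV or either MSC V array (adjusted p = 0.0541 to 0.344). With low-value genes kept in, neither Aspn (adjusted p = 0.0876) nor Mfap2 (adjusted p = 0.0919) was called.

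Fat cell markers moved with the MSC I differences. Of 9 tested adipocyte markers, 4 (Adipoq, Cd36, Cidec and Plin1) passed the filter through the MSC I arrays alone, so that they could only be high there, and the other 5 were higher in MSC I (against 7.73% of all tested genes). The log2 of the mean linear level of the list was 11.32 and 11.67 on the MSC I arrays, against 7.39 to 8.77 on the others. Adipoq averaged 10.45 in MSC I and 4.97 to 5.06 in the other preparations, while Lep failed the filter at 4.91 to 5.20. Without MSC I rep 1 or rep 2, 5 of these markers passed the filter, and all 5 were higher in MSC I. Of 7 tested osteoblast markers, 4 were lower in MSC I (against 5.22% of all tested genes), among them Panx3. Panx3 passed the filter through the MSC IV arrays alone, so it was not above the table median in any other preparation. Its place in this count is no separate result about MSC I. The part of these markers in the matrix differences was not tested.

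MSC IV had low levels of most of the genes that differed, across the basement membrane, microfibrils and proteoglycans. The median difference from the other preparations was -0.88 log2 over the 36 tested genes and 0.01 log2 over all tested genes. The 14 lower genes were Nid1 (-5.48 ± 0.191 log2), Vcan (-4.79 ± 0.204), Efemp1 (-4.13 ± 0.401), Mfap2 (-3.57 ± 0.389), Mfap5 (-3.03 ± 0.171), Thbs2 (-2.72 ± 0.129), Emilin2 (-2.72 ± 0.228), Lamb1 (-2.65 ± 0.23), Fbln1 (-2.62 ± 0.253), Dcn (-2.24 ± 0.323), Tgfbi (-2.05 ± 0.643), Nid2 (-1.71 ± 0.419), Fbln2 (-1.61 ± 0.161) and Matn2 (-1.14 ± 0.285). Postn was the 1 higher gene (1.10 ± 0.29 log2, adjusted p = 0.0248), and with MSC I omitted from the reference its difference was -0.36 log2 (adjusted p = 0.411). The Postn call also ended without MSC I rep 2 (0.98 log2), MSC II rep 1 (0.999 log2), MSC IV rep 1 (adjusted p = 0.153) or MSC IV rep 2 (adjusted p = 0.0965). Matn2 was not called without MSC IV rep 2 (adjusted p = 0.205), nor Nid2 (adjusted p = 0.195), which was also lost with MSC I omitted from the reference (adjusted p = 0.0570). Tgfbi was not called without MSC I rep 1, MSC V rep 1 or any array of MSC III or MSC IV (adjusted p = 0.0577 to 0.192), nor with low-value genes kept in (adjusted p = 0.0846). The other 11 lower genes were called in every alternative in which they were tested.

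Bone cell markers moved with the MSC IV differences. Of the 7 tested osteoblast markers, Panx3 passed the filter through the MSC IV arrays alone, so that it could only be high there. Of the other 6, 4 differed among the preparations (66.7%, against 29.1% of all tested genes). With Panx3 counted, 5 of the 7 were higher in MSC IV, where 3.29% of all tested genes were. Panx3 was bound to raise that count, which also fell without MSC IV rep 1. Of the osteoblast list, 8 markers had a probe set of that symbol alone, and Bglap, Runx2 and Spp1 had none. The log2 of the mean linear level of the 8 was 11.38 and 12.63 on the MSC IV arrays, against 6.81 to 9.86 on the others. Ibsp averaged 13.54 in MSC IV and 5.12 to 10.45 in the other preparations, while Mepe failed the filter at 5.15 to 5.34. Of 6 tested smooth muscle markers, 4 were lower in MSC IV (against 7.70% of all tested genes), with the list at 10.36 and 10.45 on its arrays, against 11.69 to 12.18 on the others. The part of these markers in the matrix differences was not tested.

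Set directly against MSC IV, MSC I had the widest matrix differences of Efemp1 (7.28 ± 0.507 log2, adjusted p = 4e-05), Nid1 (6.55 ± 0.241 log2, adjusted p = 2.31e-06) and Vcan (5.48 ± 0.258 log2, adjusted p = 6.76e-06). Efemp1 and Nid1 lay under the table median on both MSC IV arrays, so no fold is given for them, and Vcan was 44.8-fold higher in MSC I. Mfap2 (3.76 log2), Thbs2 (3.48), Fbln1 (3.48), Dcn (3.19), Lamb1 (3.03), Nid2 (2.74), Emilin2 (1.83) and Lamc1 (1.57) were higher too. Lower in MSC I were Postn (-5.47 ± 0.366 log2, adjusted p = 3.49e-05), Fmod (-4.35 ± 0.61 log2, adjusted p = 0.00125), Tnc (-2.22 log2), Tnn (-1.59) and Lama2 (-1.28). These 16 genes were called in every alternative in which they were tested. The call of Ogn (1.25 ± 0.427 log2, adjusted p = 0.0451) ended without either array of MSC I, either array of MSC II or MSC IV rep 2 (adjusted p = 0.0596 to 0.249). Fbln5 (-1.04 ± 0.345 log2, adjusted p = 0.0414) lost its call without any array of MSC I, MSC II or MSC III, or without MSC IV rep 1 (adjusted p = 0.0514 to 0.205). Fbln2 (1.06 ± 0.203 log2, adjusted p = 0.00499) came under 1 log2 without MSC I rep 2 (0.94 log2). Neither Ogn nor Fbln5 was called with low-value genes kept in (adjusted p = 0.0824 for Ogn and 0.0740 for Fbln5) or with the 4 arrays of the pair alone (adjusted p = 0.0557 for Ogn and 0.0752 for Fbln5). Mfap5, low in both preparations, differed by 0.17 ± 0.216 log2, adjusted p = 0.536, and was not called.

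**Figure D4:**
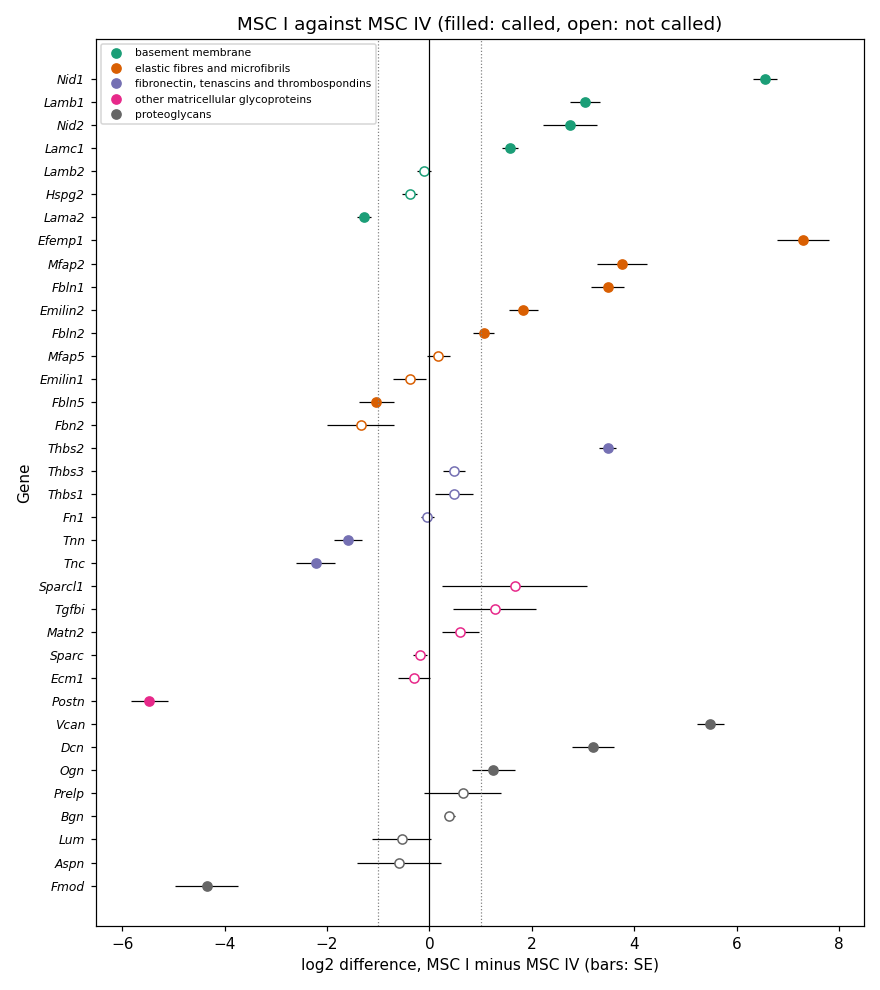
Points give the log2 difference of MSC I minus MSC IV for the 36 tested genes, coloured by role, with bars for the standard error; filled points were called and dotted lines mark 1 log2 either way. Efemp1 (7.28), Nid1 (6.55) and Vcan (5.48) lie farthest to the right and Postn (-5.47) and Fmod (-4.35) farthest to the left.

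In MSC II 8 genes were higher and 1 lower, some at levels near those of another preparation. Lama2 averaged 9.145 in MSC II and 9.165 in MSC III, and Emilin2 9.79 in MSC II and 9.32 in MSC III. Fmod averaged 6.007 in MSC II and 5.365 in MSC I. Emilin2 (1.98 ± 0.228 log2, adjusted p = 0.00188) and Lama2 (1.97 ± 0.113 log2, adjusted p = 0.000124) were higher, and Fmod lower, in every alternative that tested them. The other higher genes depended on single arrays or on the preparations in the reference. Efemp1 (2.44 ± 0.401 log2) was not called without MSC II rep 2 (adjusted p = 0.0727), nor were Fbn2 (2.33 ± 0.515, adjusted p = 0.168 without it) and Mfap2 (1.91 ± 0.389, adjusted p = 0.131 without it). Matn2 (1.24 ± 0.285) and Dcn (1.39 ± 0.323) lost their calls without either MSC II array (adjusted p = 0.0591 and 0.176 for Matn2, 0.126 and 0.114 for Dcn). Nid1 (1.48 ± 0.191) was at 0.12 log2 with MSC IV omitted from the reference. With that reference Mfap2 (adjusted p = 0.0884) and Dcn (0.89 log2) were also not called, and Fbn2 was not with MSC I omitted (adjusted p = 0.0741).

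In MSC III tenascin W stood out. Lama2 and Mfap5 were higher too, but not in MSC III alone. Lama2 averaged 9.165 in MSC III and 9.145 in MSC II, and Mfap5 10.02 in MSC III and 10.48 in MSC V. Tnn, Lama2 (1.99 ± 0.113 log2, adjusted p = 0.000216) and Mfap5 (2.37 ± 0.171 log2, adjusted p = 0.000535) were higher in every alternative that tested them. Fmod (3.46 ± 0.482 log2) was not called without MSC III rep 1 (adjusted p = 0.108) or rep 2 (adjusted p = 0.0852), nor was Emilin2 (1.39 ± 0.228, adjusted p = 0.0975 and 0.173), Postn (1.93 ± 0.29, adjusted p = 0.120 and 0.114) or Vcan (1.12 ± 0.204, adjusted p = 0.0953 and 0.223). Vcan was also lost without MSC I rep 1 (adjusted p = 0.0533). Fbln2 (1.25 ± 0.161) was not called without MSC III rep 2 (adjusted p = 0.101). Efemp1, the 1 lower gene (-2.42 ± 0.401), was not called without MSC III rep 1 (adjusted p = 0.156). With MSC IV omitted from the reference, Vcan was at -0.09 log2, Emilin2 at 0.76 log2 and Fbln2 at 0.90 log2. With MSC I omitted, Postn was at 0.53 log2 and Efemp1 at -1.26 log2 (adjusted p = 0.133).

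In MSC V Mfap5 (2.95 ± 0.171 log2, adjusted p = 0.000157) was higher in every alternative that tested it. Mfap5 was not high in MSC V alone: it averaged 10.48 there and 10.02 in MSC III, a difference that was not called (adjusted p = 0.246). The other calls depended on single arrays or on the reference. Postn (2.20 ± 0.29 log2) was at 0.82 log2 with MSC I omitted from the reference. Fmod (2.77 ± 0.482) was not called without MSC V rep 2 (adjusted p = 0.0764), nor was Fbln2 (1.14 ± 0.161) without MSC V rep 1 (adjusted p = 0.0612) or with MSC IV omitted (0.79 log2). Ecm1 (1.18 ± 0.247) lost its call without MSC III rep 1 (adjusted p = 0.0527), MSC V rep 1 (adjusted p = 0.162) or rep 2 (adjusted p = 0.0938), or with MSC I omitted (0.96 log2). Nid1 (1.01 ± 0.191) was at -0.38 log2 with MSC IV omitted from the reference, and was not called without MSC III rep 1 (0.93 log2), MSC IV rep 2 (0.97 log2) or MSC V rep 1 (adjusted p = 0.146). Tnn, the 1 lower gene (-1.04 ± 0.219), lost its call without MSC II rep 2 (-0.94 log2), MSC III rep 1 (-0.99 log2), MSC V rep 1 (adjusted p = 0.0974) or rep 2 (adjusted p = 0.138). It also came under 1 log2 with arrays centred on their medians or quantile normalised again (-0.95 log2 each). The mean of Tnn in MSC V (6.86) lay above that in MSC I (6.35) and near that in MSC II (6.93). It was 7.94 in MSC IV and 10.40 in MSC III, and a reference without MSC III was not tried.

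MSC III and MSC V differed in tenascin W and the laminin chain Lama2, with a median size of difference of 0.39 log2 over the 36 genes, against 0.24 log2 over all tested genes. Tnn (3.53 ± 0.278 log2, adjusted p = 0.000913) and Lama2 (2.06 ± 0.143 log2, adjusted p = 0.000628) were higher in MSC III. For both, the arrays of the 2 preparations did not overlap, at 10.59 and 10.20 in MSC III and 7.03 and 6.70 in MSC V for Tnn, and 9.12 and 9.21 in MSC III and 7.10 and 7.12 in MSC V for Lama2. With the low-value filter raised to the table's 75th percentile, Lama2 was not tested. The other genes were not called, which does not show that they were equal.

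Genes that work with these matrix proteins are given here from lists of known family members, and each share is to be read against the 29.1% of all tested genes that differed. Of 11 tested other basement membrane genes, 8 differed (72.7%, or 4 of 5 with the filter at the table's 75th percentile), and the laminin alpha chain Lama5 averaged 11.04 in MSC I, 7.83 in MSC II, 9.15 in MSC III, 6.22 in MSC IV and 8.99 in MSC V. Tinagl1 was highest in MSC I (11.18) and lowest in MSC II (7.43). Smoc1 was highest in MSC III (10.52) and lowest in MSC II (6.40), and the laminin chain Lama1 was highest in MSC III (9.14) and lowest in MSC V (6.02). Of 14 elastic fibre assembly genes, 9 differed (64.3%, against 29.1%). The crosslinking enzyme Loxl4 averaged 11.31 in MSC IV, the highest, and 8.03 in MSC I, the lowest, and lost its call without MSC IV rep 2 (adjusted p = 0.0526). The transglutaminase Tgm2 averaged 10.37 in MSC I and 6.82 in MSC II, and the latent TGF-beta-binding protein Ltbp2 7.94 in MSC III and 5.53 in MSC II. Fbln7 averaged 10.19 in MSC I and 6.84 in MSC IV.

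Of 14 other matricellular and adhesive glycoproteins, 10 differed (71.4%, against 29.1% of all tested genes). Of the 14, 8 were lower in MSC IV, where 7.70% of all tested genes were, or 5 without MSC IV rep 2. Srpx averaged 10.24 in MSC V and 10.19 in MSC III, against 4.92 in MSC I, its lowest. Svep1 averaged 11.89 in MSC I and 6.35 in MSC IV. Sned1 and Edil3 were also lowest in MSC IV, at 5.64 and 6.97. The call of Edil3 was lost without MSC IV rep 2 (adjusted p = 0.0539) or MSC V rep 2 (adjusted p = 0.0593), and that of Sned1 without MSC I rep 1, MSC V rep 1 or any single array of MSC III or MSC IV (adjusted p = 0.0560 to 0.140), and with low-value genes kept in (adjusted p = 0.0804). Of 14 other proteoglycan and hyaluronan genes, 9 differed (64.3%, against 29.1%). The cell surface proteoglycans Gpc1 and Sdc3 and the link protein Hapln4 were highest in MSC IV, at 11.35, 11.73 and 8.69, while the TGF-beta co-receptor Tgfbr3 was highest in MSC I (12.06) and lowest in MSC IV (7.13).

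Of 28 genes of glycosaminoglycan synthesis, 15 differed (53.6%, against 29.1% of all tested genes). The heparan sulfate sulfatases ran opposite ways: Sulf1 averaged 10.65 in MSC I and 6.19 in MSC IV, its lowest, while Sulf2 averaged 9.88 in MSC V and 5.90 in MSC I, its lowest. The sulfotransferase Ust averaged 5.80 in MSC I and 9.65 to 10.42 in the other preparations. Hs6st2, another sulfotransferase, was lowest in MSC IV (7.58). Of 21 matrix receptors, 3 (Cd36, Itga2 and Itga8) passed the low-value filter through the MSC I arrays alone, so that they could only be high there. Of the other 18, 8 differed (44.4%, against 29.1%). The integrin alpha chain genes Itga1, Itga2 and Itga8 were highest in MSC I, at 9.83, 9.41 and 9.72. Itga2 averaged 5.31 to 5.56 and Itga8 5.58 to 6.03 in the other preparations. The thrombospondin receptor Cd36, also a fat cell marker, averaged 12.18 in MSC I and 4.95 to 5.07 in the others.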

How the data were processed

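Total RNA of marrow stromal cells, 2 arrays for each of 5 preparations, was labelled with biotin and hybridised to Affymetrix arrays, per the labels' protocols. Groups follow the sample titles. The authors deposited log2 expression values, and the submitters' processing notes name RMA and Partek without a version. RMA subtracts background and brings all arrays to one distribution, which narrows differences among dim probe sets. Detection calls were not used here, and a low level does not show that a transcript was absent.

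The platform annotation gave 1 symbol to 21789 probe sets, several to 1621 and none to 11989. Only the first kind was used, with the probe set of the highest mean where a gene had more than 1. The fit used limma 3.58.1 (lmFit, eBayes) under R 4.3.3, with 1 mean per preparation and 1 spread shared by all arrays, on the 10971 genes with at least 2 arrays above the table median. Tables were made in Python 3.11.15. The p-values are two-sided and adjusted by Benjamini-Hochberg across these genes.

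All listed genes could be named, and up to 4 called genes from each further list, those whose preparation means spanned most. The genes, lists and tests were chosen with earlier results of these data known. Scripts were tested on simulated data. The alternatives tried were no low-value filter, a filter at the 75th percentile (9.22 log2), averaged probe sets, centring of arrays on their medians, an added quantile normalisation, the trend and robust options of eBayes, a replicate block, omission of each array in turn, fits of a pair's 4 arrays alone, and references without MSC I or without MSC IV. When an array was omitted, the lone array of its preparation was assumed to vary like the rest. Promoter windows came from RefSeq.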

Additional observations from a re-analysis of the deposited data

How the results depend on the processing

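Of the 23 genes that differed among the preparations, 18 kept their call in every alternative in which they were tested, and of 81 called differences 49 did. Counts of genes moved by more than 1.5 times in these cases. Genes lower in MSC II numbered 1, against 3 with centred arrays, 2 with quantile normalisation, 3 with trend and robust settings, 2 with MSC I and 4 with MSC IV left out of the reference. Genes lower in MSC V numbered 1, against 0 with centred arrays, with quantile normalisation and with the replicate block, and 2 with MSC I or MSC IV left out. With MSC IV left out of the reference, 5 genes were higher in MSC II and 5 in MSC III, against 8 each, and 3 were lower in MSC III, against 1. With MSC I left out, 0 were lower in MSC III and 0 higher in MSC IV, against 1 each. With the filter at the 75th percentile, 1 gene differed between MSC III and MSC V, against 2. Leaving out 1 array gave 3 to 8 higher and 1 to 4 lower genes in MSC II, 3 to 10 higher and 0 to 1 lower in MSC III, 0 to 2 higher in MSC IV, and 3 to 6 higher and 0 to 1 lower in MSC V. Among the called differences, 3 changed sign with a preparation left out of the reference: Vcan in MSC III (-0.086 log2) and Nid1 in MSC V (-0.381 log2) without MSC IV, and Postn in MSC IV (-0.358 log2) without MSC I. The cause was not tested beyond this removal. The replicate numbers did not pair the arrays (correlations of their deviations -0.55 to 0.20), and with the replicate block 23 genes differed among preparations, 9 were higher and 9 lower in MSC I, 7 higher in MSC III, 13 lower in MSC IV, 5 higher in MSC V, and 12 higher and 5 lower in MSC I than in MSC IV. The calls lost with the block were those of Aspn and Mfap2 in MSC I, Vcan in MSC III (adjusted p = 0.0590), Tgfbi in MSC IV, Ecm1 (adjusted p = 0.0576) and Tnn in MSC V, and Ogn and Fbln5 in MSC I against MSC IV (adjusted p up to 0.0746).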
